A study of Rattus norvegicus with 38 samples.

Results

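The comparison set the lungs of 12 smoke-exposed low capacity runner (LCR) rats against those of 12 smoke-exposed high capacity runner (HCR) rats, 24 of the 38 arrays of the study. Arrays were chosen by line and exposure as the labels give them, and no measured value entered the choice. LCR and HCR rats are lines bred apart from N:NIH stock for poor and good endurance running, so the contrast holds every inherited difference between both lines, running capacity among them. The 4 groups were LCR smoke (12 rats), HCR smoke (12), LCR sham (7) and HCR sham (7). All were female N:NIH rats, age matched at 34 weeks, whose lungs were taken after 12 weeks of cigarette smoke or, in the sham groups, room air, given on 5 days a week. RNA of each lung piece was read on an Affymetrix Rat Genome 230 2.0 array, on which a probe set reports one transcript as an intensity. Levels are given as log2(intensity + 16), and a difference is LCR minus HCR on that scale with its standard error, so 1 means a doubling where the intensity is well above 16. A level below 5 is an intensity below 16, where such a difference understates the ratio.

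Cigarette smoke brings polycyclic hydrocarbons, oxidants and particles onto the airway and alveolar lining. Hydrocarbons act through the aryl hydrocarbon receptor on detoxifying enzymes such as Cyp1a1, oxidants act through the factor NRF2 on genes such as Nqo1, and particles are taken up by alveolar macrophages, which swell with lipid. The alveolar type 2 cell makes surfactant from fatty acids and cholesterol, and natural killer and cytotoxic T cells patrol the same tissue. In a piece of lung, fewer cells of a type and less RNA per cell cannot be told apart.

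All groups carried the defining transcripts of lung. The surfactant protein Sftpc averaged an intensity of 10680 in LCR smoke and 10510 in HCR smoke lungs, and the club cell protein Scgb1a1 averaged 10150 in LCR smoke and 10610 in HCR smoke lungs. Median intensities of the 24 arrays lay between 44.5 and 48.4, and any 2 of these arrays correlated at 0.977 to 0.997. HCR smoke arrays 0410, 0414, 0415 and 0417 stood apart through heart muscle RNA. The mean of 19 heart muscle genes, each centred on its mean over all 38 arrays, ran from -0.82 to 0.46 in LCR smoke and from -0.73 to 3.31 in HCR smoke arrays. The line difference in that mean was -0.958 (two-sided permutation test, p = 0.0333, adjusted p = 0.0888 over 8 array measures). A list of 14 skeletal muscle genes was slightly lower in LCR smoke (-0.223 ± 0.052) than in HCR smoke arrays (-0.063 ± 0.146, SD, n = 12 each, two-sided permutation test, adjusted p = 0.00192). HCR smoke array 0419 stood apart in another way, seen after the values were known. It was the lowest HCR smoke array for lactoperoxidase Lpo at 5.46 (the other 11 at 6.89 to 10.18, HCR sham at 4.74 to 5.63), for the macrophage elastase Mmp12 at 6.12 (the others at 7.11 to 10.87) and for the anion exchanger Slc26a4 at 6.42 (the others at 7.42 to 9.16). Its Cyp1a1, at 11.96, lay within the others' 11.46 to 12.26. The interquartile range of the array values, a measure of spread over all probe sets, averaged 2.914 in LCR smoke and 2.859 in HCR smoke arrays (adjusted p = 0.129 in the same permutation test).

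Of 14217 genes, 898 differed between the lines under smoke at an adjusted p of at most 0.05 (limma, Benjamini-Hochberg), which is 6.32% of those tested. LCR smoke lungs were higher for 656 of them (4.61% of all genes) and lower for 242 (1.70%). Under quantile normalization the split was 460 higher and 360 lower. Most differences were small: the median size among the 898 was 0.20, and 42 genes (0.295%) differed by at least 1.5-fold, 25 higher and 17 lower in LCR smoke. At least 2-fold, 4 genes were higher and 5 were lower. The count was 602 without HCR smoke array 0419, 449 without the 4 heart-rich HCR smoke arrays and 365 with the interquartile range as a covariate, and the part of these measures in the differences was not tested further.

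For 12 genes (0.0844% of 14217) no LCR smoke array overlapped any HCR smoke array. Higher in LCR smoke were Anks4b, Mab21l3, Crym, Scrn1, Pithd1, Atp2c1 and Tmed9, and lower were Mis18a, Cklf, Slit3, Cyp2j4 and Nfe2l1. Pithd1, Atp2c1, Tmed9, Cklf, Slit3, Cyp2j4 and Nfe2l1 are named because their arrays were separated, a choice made on seen values.

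Mis18a, part of the complex that prepares centromeres for new CENP-A histone, had its lowest, median and highest levels at 5.01, 5.17 and 5.44 in LCR smoke and at 6.71, 6.86 and 7.52 in HCR smoke lungs. More than 1 log2 unit of empty range separated both groups. The difference was -1.81 ± 0.16 (limma adjusted p = 2.88e-09), and under sham it was -1.99 (adjusted p = 1.59e-07). In LCR sham lungs 5 of 7 arrays lay at 5.09 or lower, while arrays 0445 and 0446 stood at 6.60 and 6.56, close to the HCR sham range of 6.69 to 7.68.

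Mab21l3 ran at 5.83, 6.18 and 7.03 in LCR smoke and 5.11, 5.39 and 5.77 in HCR smoke lungs (lowest, median, highest). Every LCR smoke rat was above every HCR smoke rat, with a difference of 0.82 ± 0.08 (adjusted p = 3.31e-08). Sham lungs of both lines shared one low range, 4.83 to 5.02 in LCR and 4.77 to 5.12 in HCR. Its line difference was larger under smoke by 0.80 ± 0.14 (adjusted p = 0.00221), and Tmed9 was the other of the 12 to pass that test (0.17 ± 0.04, adjusted p = 0.0314).

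Cklf, a small chemokine-like secreted protein, differed by -0.59 ± 0.08, with LCR smoke arrays at 6.64 to 7.25 and HCR smoke arrays at 7.27 to 7.90. Slit3, a secreted ligand of Robo receptors, differed by -0.45 ± 0.08. Nfe2l1, a transcription factor that drives proteasome genes, lay at 8.82 to 9.15 in LCR smoke and 9.20 to 9.68 in HCR smoke lungs, a difference of -0.34 ± 0.05. The mean over its 3 probe sets was not called, with an adjusted p of 0.694. Pithd1 differed by 0.53 ± 0.06, Atp2c1, a Golgi calcium and manganese pump, by 0.25 ± 0.04, and Tmed9, a cargo receptor of the early secretory pathway, by 0.17 ± 0.03. Cyp2j4, an arachidonic acid epoxygenase, differed by -0.44 ± 0.08, and its neighbour and close relative Cyp2j3 by -0.29 ± 0.06. Probes of such related genes can share transcripts, so these 2 are uncertain as separate results.

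**Figure D1:**
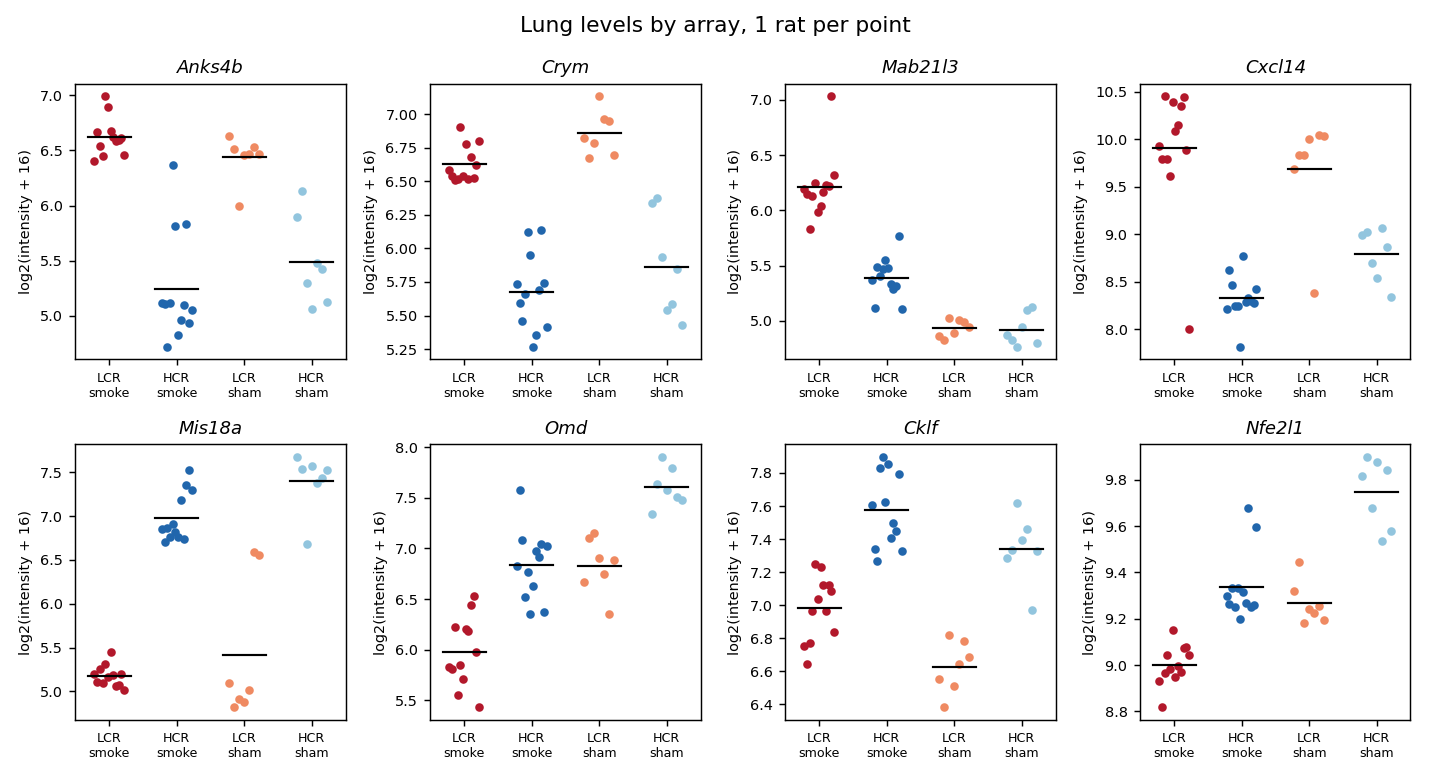
Levels of 8 genes as log2(intensity + 16) in LCR smoke (12 arrays), HCR smoke (12), LCR sham (7) and HCR sham (7) lungs; each point is 1 rat and each bar a group mean. The LCR smoke and HCR smoke points do not overlap for Anks4b, Crym, Mab21l3, Mis18a, Cklf and Nfe2l1, while Cxcl14 has 1 LCR smoke array at 8.0 among the HCR smoke points.

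Anks4b, Crym, Ldaf1 and Zp2 lie side by side on chromosome 1, as neighbours among the measured genes in the GRCr8 gene order, and all 4 were higher in LCR smoke lungs. Anks4b, a scaffold protein of epithelial brush borders, had its lowest, median and highest levels at 6.40, 6.60 and 6.99 in LCR smoke and 4.72, 5.10 and 6.37 in HCR smoke lungs. HCR smoke lungs were the more spread, with array 0412 reaching almost to the lowest LCR smoke array, and the difference was 1.38 ± 0.14 (limma adjusted p = 3.31e-08). Crym, a cytosolic thyroid hormone binding protein, lay at 6.51, 6.56 and 6.90 in LCR smoke and 5.27, 5.67 and 6.14 in HCR smoke lungs. Its LCR smoke arrays were tight and wholly above the HCR smoke arrays (0.95 ± 0.10, adjusted p = 6.75e-08). Ldaf1, a seipin partner in lipid droplet assembly, differed by 0.52 ± 0.07 (adjusted p = 9.04e-06), and Zp2, an egg coat protein with low levels here, by 0.16 ± 0.05 (adjusted p = 0.0449, and not called with any 1 of 16 smoke arrays left out, up to 0.0772). Ldaf1 and Zp2 were picked for their place, with their values in view.

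The same 4 genes were higher in LCR sham than in HCR sham lungs, by 0.64 for Ldaf1, 0.95 for Anks4b, 0.43 for Zp2 and 1.0 for Crym, all called. None of the 3 measured genes before them and none of the 6 after them was called under smoke, although Eef2k was called under sham. Among the 95 genes called in the same direction under both exposures, all with a place in GRCr8, 5 pairs were direct neighbours. Besides the 3 pairs in this run they were Hp with Dhodh on chromosome 19 (0.61 and 0.21 under smoke) and Cyp2j4 with Cyp2j3 on chromosome 5.

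**Figure D2:**
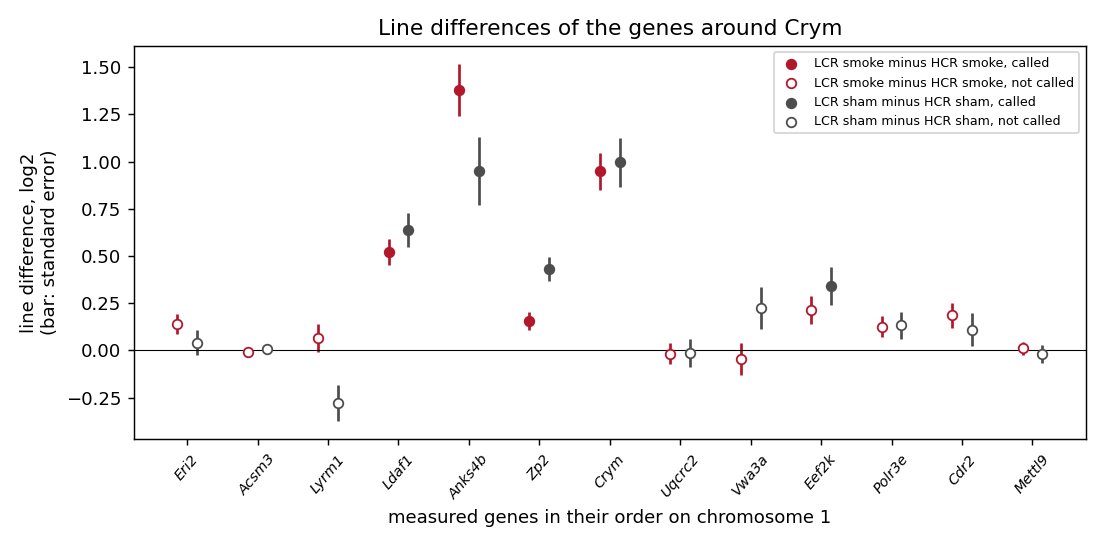
Line differences (log2, points, with standard error bars) of 13 measured genes in their order on chromosome 1, under smoke and under sham; filled points passed an adjusted p of 0.05. Ldaf1, Anks4b, Zp2 and Crym are filled under both exposures, and under smoke the other 9 are open.

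RT1 is the rat major histocompatibility complex, whose class II genes show peptides to helper T cells and whose class I genes show them to cytotoxic T cells. It holds some of the most variable genes between individual rats. RT1-Ba, a class II alpha chain, had the largest difference among called genes, 3.28 ± 0.66 (limma adjusted p = 0.00250). Its levels fell into a high and a low set rather than around a mean: 11 of 12 LCR smoke arrays were above 9 and 1, array 0428, was at 6.98, while 2 of 12 HCR smoke arrays were above 9 and 10 were below 8. Sham lungs showed both sets too, with 6 of 7 LCR sham and 3 of 7 HCR sham arrays above 9.

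The RT1-Ba probe sets did not move together. The one next in brightness gave 3.32 ± 0.70, close to the chosen one, whereas the other 2 gave -0.59 ± 0.14 (adjusted p = 0.00892 over all probe sets) and -0.67 ± 0.37 (adjusted p = 0.303). The direction for RT1-Ba as a gene therefore depends on the probe set. RT1-A, a classical class I gene, had its lowest, median and highest levels at 5.18, 7.57 and 8.28 in LCR smoke and 7.17, 8.44 and 8.74 in HCR smoke lungs. LCR smoke arrays 0424, 0426 and 0429 lay at 5.52, 5.18 and 5.37, far below all others, and the same 3 arrays had the highest levels of the study on the brightest RT1-Ba probe set, 12.30, 12.37 and 12.22. On the dimmest RT1-Ba probe set they were instead the lowest of the study, at 6.57, 6.35 and 6.44, with the next array at 6.85. The RT1-A difference was -1.23 ± 0.29 (adjusted p = 0.00986), with -0.35 under sham (adjusted p = 0.699).

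Of 8 class II genes measured, RT1-Ba and the peptide loading chain RT1-DMa (0.28 ± 0.07, adjusted p = 0.0213) were called (25.0%, against 6.32% of all genes). The list median was -0.01. The other 6, RT1-Da, RT1-Db1, RT1-Bb, Cd74, Ciita and RT1-DMb, lay between -0.26 and 0.09. Of 13 class I and peptide loading genes, 15.4% were called. The immunoproteasome subunit Psmb8 was higher (0.33 ± 0.07, adjusted p = 0.00479) and RT1-M3-1 was lower (-0.15 ± 0.05, adjusted p = 0.0423, up to 0.0798 with 1 array left out). Tap1 and Tap2, the peptide transporter, had differences of -0.19 and -0.19 that did not pass (adjusted p = 0.114 and 0.363).

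**Figure D3:**
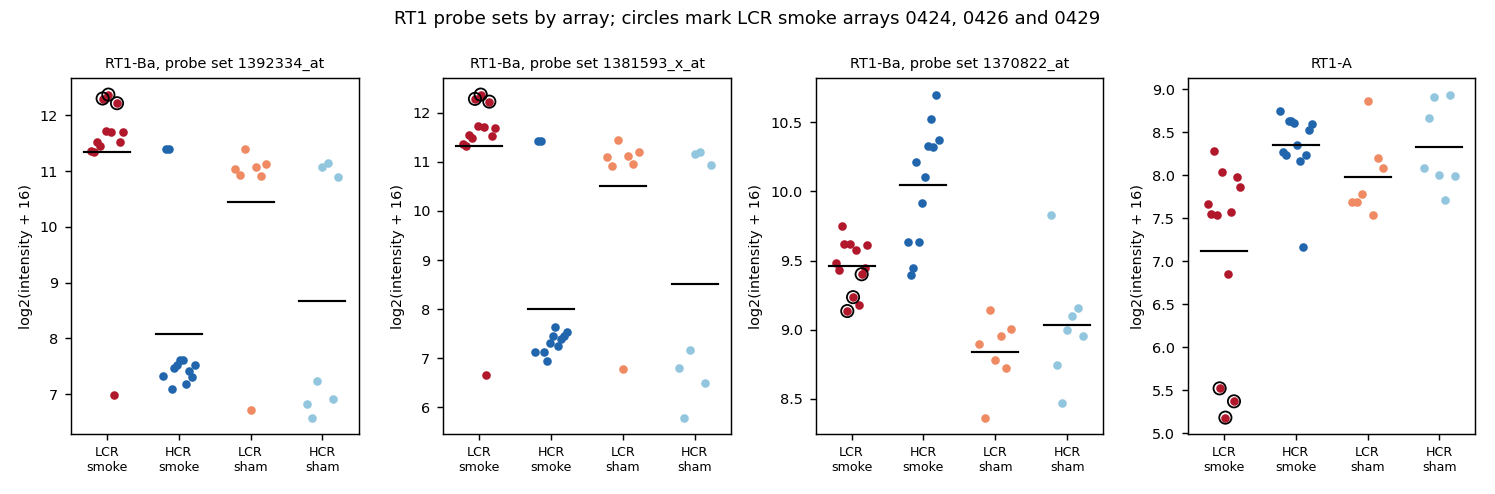
Levels as log2(intensity + 16) of 3 RT1-Ba probe sets and of RT1-A in LCR smoke, HCR smoke, LCR sham and HCR sham lungs; points are rats, bars are means, and circles mark LCR smoke arrays 0424, 0426 and 0429. In the first 2 panels each group splits into a high and a low set, and the circled arrays are highest there. In the third panel they lie at 9.13, 9.23 and 9.40, and for RT1-A they are lowest.

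Genes of cholesterol and fatty acid synthesis were higher in LCR smoke lungs: 10 of 22 measured members were called, all higher, against 4.61% of all genes called higher. The list median was 0.24, against 0.0063 for all genes, and 21 of 22 differences were above 0. The list was written with earlier results of these data known. With 1 smoke array left out in turn, 9 to 13 members were called, and without the 4 heart-rich arrays 11 were.

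The called members run along the pathway from acetyl groups to cholesterol. Acly, which makes cytosolic acetyl-CoA, differed by 0.15 ± 0.05, and Fasn, which builds palmitate from it, by 0.29 ± 0.06. In the isoprenoid arm Fdps, the farnesyl diphosphate synthase, differed by 0.26 ± 0.06 and Fdft1, the squalene synthase, by 0.40 ± 0.09. Among the sterol enzymes that follow, the differences were 0.45 ± 0.08 for Cyp51, 0.27 for Msmo1, 0.27 for Nsdhl, 0.31 for Hsd17b7 and 0.35 ± 0.07 for Dhcr7. Insig1, the sterol-sensing brake that holds SREBP factors in the endoplasmic reticulum, differed by 0.29 ± 0.07. The smallest adjusted p was 2.39e-04 for Nsdhl and the largest 0.0428 for Acly (limma).

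Cyp51, the lanosterol demethylase, had its lowest, median and highest levels at 8.31, 8.51 and 8.85 in LCR smoke and 7.71, 8.11 and 8.54 in HCR smoke lungs. The groups overlapped at their edges, with all 12 LCR smoke arrays above the HCR smoke mean. Nsdhl ran at 7.39, 7.60 and 7.79 in LCR smoke and 7.14, 7.32 and 7.55 in HCR smoke lungs, again overlapping only at the edges. Fasn lay at 11.06, 11.29 and 11.45 in LCR smoke and 10.70, 10.99 and 11.25 in HCR smoke lungs, and its second probe set gave 0.39 ± 0.08 (adjusted p = 0.00578 over all probe sets).

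The transcription factors of the pathway were not called: Srebf1 differed by 0.17 ± 0.06 (adjusted p = 0.0673) and Srebf2 by 0.05 ± 0.06 (adjusted p = 0.621). Idi1 (0.38 ± 0.13), Sqle (0.34 ± 0.12) and Mvd (0.20 ± 0.07, adjusted p = 0.0508) had differences of like size that did not pass, and Scd and Elovl6, which act on finished fatty acids, stood at 0.01 and -0.11.

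Under sham no member was called higher in LCR lungs and Fasn was called lower (-0.30, adjusted p = 0.0238), with a list median of 0.01 (1.39% of all genes were called higher and 2.34% lower under sham). The line difference under smoke minus that under sham was called for 3 of 22 members, against 1.87% of all genes. It was 0.59 ± 0.10 for Fasn (adjusted p = 0.00221), 0.32 ± 0.07 for Nsdhl (adjusted p = 0.0216) and 0.35 ± 0.09 for Fdps (adjusted p = 0.0411). Fdps was chosen after its values were seen. For Fasn, smoke minus sham was 0.57 in LCR and -0.02 in HCR lungs, and for Nsdhl it was 0.33 in LCR and 0.02 in HCR lungs.

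Because these members moved together, the 250 bases before their RefSeq start sites (build GRCr8) were searched for 2 motifs on both strands. One was CCAAT, the box bound by NF-Y, and the other was TCACNCCAC, a form of the sterol regulatory element; neither overlaps the other here. Sequences were found for 8 of the 10 called members, and those for Fasn and Fdft1 were not used here. CCAAT was in 6 of the 8 and in 34.0% of 33469 promoters of that length, while TCACNCCAC was in 0 of the 8 and in 0.974% of those promoters. The 4 members with more than 1 box are shown 5′ to 3′ with CCAAT, or its reverse complement ATTGG, in capitals. Fdps lies at chr2:176804817-176805066 on the minus strand, Nsdhl at chrX:155817110-155817359 on the plus strand, Msmo1 at chr16:29746863-29747112 on the plus strand and Hsd17b7 at chr13:84722755-84723004 on the minus strand.
Fdps: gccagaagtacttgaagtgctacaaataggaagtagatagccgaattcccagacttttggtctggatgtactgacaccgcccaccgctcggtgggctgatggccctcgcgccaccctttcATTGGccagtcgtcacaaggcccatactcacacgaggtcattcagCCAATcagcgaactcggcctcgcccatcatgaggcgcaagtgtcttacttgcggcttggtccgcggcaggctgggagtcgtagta
Nsdhl: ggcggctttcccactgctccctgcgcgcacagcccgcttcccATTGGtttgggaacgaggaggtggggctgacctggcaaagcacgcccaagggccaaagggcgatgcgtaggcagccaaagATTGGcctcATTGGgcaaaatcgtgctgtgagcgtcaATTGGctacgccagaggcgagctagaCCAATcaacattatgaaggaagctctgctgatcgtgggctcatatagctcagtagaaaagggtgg
Msmo1: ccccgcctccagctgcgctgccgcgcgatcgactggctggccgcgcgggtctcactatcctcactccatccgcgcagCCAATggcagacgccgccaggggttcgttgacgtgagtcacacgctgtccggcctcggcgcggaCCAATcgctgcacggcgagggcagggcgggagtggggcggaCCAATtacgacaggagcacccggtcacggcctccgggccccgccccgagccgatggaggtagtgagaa
Hsd17b7: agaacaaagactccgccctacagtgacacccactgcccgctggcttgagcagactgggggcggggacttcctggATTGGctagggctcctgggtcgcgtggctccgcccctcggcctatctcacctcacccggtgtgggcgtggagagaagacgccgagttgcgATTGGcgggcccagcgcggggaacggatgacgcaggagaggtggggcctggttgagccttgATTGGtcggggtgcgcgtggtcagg
Nsdhl holds 5 boxes, Msmo1 3, Hsd17b7 3 and Fdps 2. Such a match describes the letters and shows no binding.

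Cytotoxic lymphocyte genes were called higher in LCR smoke lungs for 8 of 22 measured members, and none was called lower (list median 0.43, with 4.61% of all genes called higher). The called members were the receptors Klrg1 (0.63 ± 0.13, adjusted p = 0.00373), Ncr1 (0.45 ± 0.10) and Il2rb (0.42), the granule proteins Gzmm (0.51), Gzmk (0.72 ± 0.21) and Nkg7 (0.59 ± 0.16), the chemokine Ccl5 (0.84 ± 0.24, adjusted p = 0.0294) and Cst7 (0.45 ± 0.10). Ncr1 is a receptor of natural killer cells and Klrg1 marks mature killer cells. Klrg1 had its lowest, median and highest levels at 5.32, 5.78 and 6.62 in LCR smoke and 4.94, 5.22 and 5.45 in HCR smoke lungs. Only the edges of both groups overlapped, and all 12 LCR smoke arrays were above the HCR smoke mean.

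Perforin itself was at the edge of the threshold. Prf1, which forms the pore that lets granzymes in, had its lowest, median and highest levels at 7.75, 8.72 and 9.36 in LCR smoke and 6.18, 7.96 and 8.10 in HCR smoke lungs. The groups overlapped, and its difference of 0.89 ± 0.28 did not pass (adjusted p = 0.0501), nor did that of Gzmb (0.52 ± 0.23, adjusted p = 0.163). The count of called members was 3 without HCR smoke array 0419, 9 at most with another array left out, and 3 without the 4 heart-rich arrays, where the list median was 0.41. Of the named members, Klrg1, Ncr1 and Cst7 stayed called with each smoke array left out. Cst7 was higher under smoke than under sham in both lines. It lay at 7.00 to 7.97 against 6.52 to 6.92 in LCR lungs, and at 6.64 to 7.31 against 5.74 to 6.53 in HCR lungs. The list median of smoke minus sham was -0.33 in LCR and 0.05 in HCR lungs. The call of Nkg7 ended without HCR smoke array 0419 or LCR smoke array 0424 or 0425 (adjusted p up to 0.0542), that of Ccl5 without HCR smoke array 0416 or 0419 or LCR smoke array 0424 or 0425 (up to 0.0624), and that of Gzmk with any 1 of 10 arrays left out (up to 0.0751).

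In sham lungs 14 of 22 members were called higher in LCR and none was called lower, with a list median of 0.83, against 1.39% of all genes called higher under sham. Klrg1 differed by 1.13 under sham, Ncr1 by 0.84 and Prf1 by 2.00. HCR sham lungs were uneven for Prf1. Arrays 0439, 0432 and 0434 lay at 8.14, 9.05 and 8.16 and the others at 6.03 to 6.82, against 8.71 to 9.66 in LCR sham lungs. The test of the change between exposures was passed by 1 member, Eomes, at -0.51 ± 0.12 (adjusted p = 0.0271). Eomes, a transcription factor of killer cells, stood at -0.07 ± 0.07 under smoke and 0.44 under sham, and was chosen after its values were seen. Of 21 T cell genes, none was called higher under smoke and 1, Cd5, was called lower (-0.31 ± 0.10, adjusted p = 0.0469, up to 0.0742 with 1 array left out). Their list median was -0.07, with Cd3d at -0.07, Cd3e at -0.15 and Cd3g at -0.21. Under sham 4 of the 21 T cell genes were called higher in LCR lungs and none was called lower, with a list median of 0.14. The test of the change between exposures was passed by 3 of the 21, against 1.87% of all genes.

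**Figure D4:**
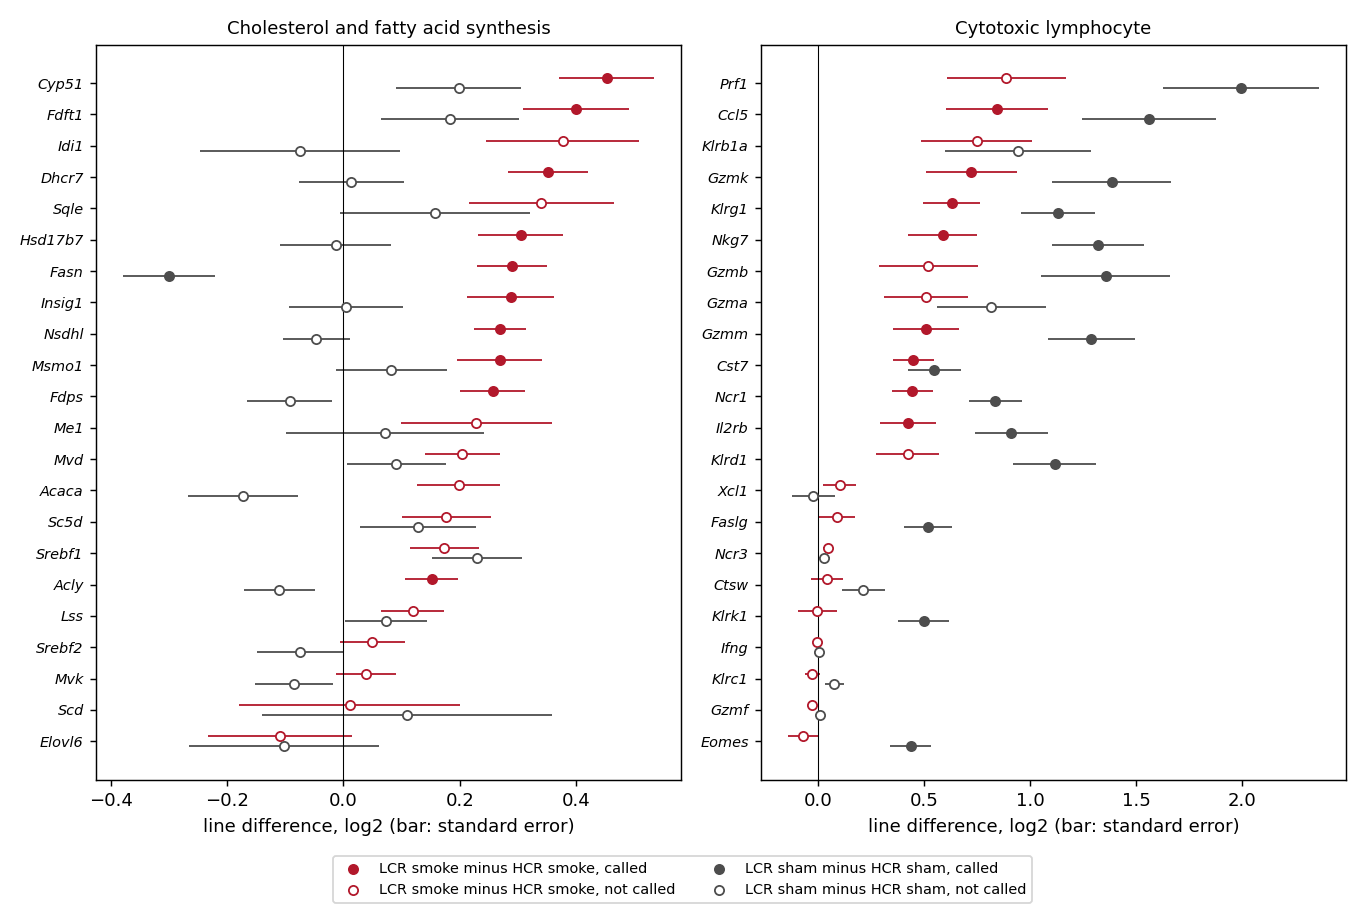
Line differences (log2, points, with standard error bars) of 22 cholesterol and fatty acid synthesis genes and 22 cytotoxic lymphocyte genes, under smoke and under sham; filled points passed an adjusted p of 0.05. In the left panel 10 smoke points are filled and 1 sham point, Fasn below 0, while in the right panel 8 smoke points and 14 sham points are filled, all above 0.

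Among cytokines and chemokines, Cxcl14, a chemokine made by epithelium, was higher in LCR smoke, with its lowest, median and highest levels at 8.0, 10.01 and 10.45 in LCR smoke and 7.82, 8.29 and 8.77 in HCR smoke lungs. Without LCR smoke array 0431, at 8.0, every LCR smoke array would lie above every HCR smoke array. The difference was 1.58 ± 0.19 (limma adjusted p = 2.11e-06), a second probe set gave 0.61 ± 0.10, and the sham difference was 0.90 (adjusted p = 0.0353). Of the 38 genes in the list, 7.89% were called, against 6.32% of all genes. Higher were 2, Cxcl14 and Cx3cl1 (0.24 ± 0.08, adjusted p = 0.0481, up to 0.0948 with 1 array left out), and 1 was lower. That one, Cxcl12, the ligand that holds leukocytes through Cxcr4, differed by -0.42 ± 0.12 (adjusted p = 0.0290). Its call ended without HCR smoke array 0417 or 0419 or LCR smoke array 0429 or 0430 (up to 0.0612), and the mean of its 3 probe sets gave an adjusted p of 0.311.

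Of 21 genes in the prostaglandin and leukotriene list, 2 were called, both higher (9.52%, against 4.61% of all genes called higher), and the list median was -0.0036. Ptges, the inducible prostaglandin E synthase, ran at 4.89, 6.19 and 7.63 in LCR smoke and 4.50, 5.27 and 5.79 in HCR smoke lungs (lowest, median, highest). The groups overlapped, and 11 of 12 LCR smoke arrays were above the HCR smoke mean. Its difference was 0.96 ± 0.20 (adjusted p = 0.00318), both of its probe sets were called, and sham lungs differed by 0.10 (adjusted p = 0.899). Alox15, a lipoxygenase of eosinophils, macrophages and epithelium, differed by 0.91 ± 0.25 (adjusted p = 0.0228), with LCR smoke arrays at 7.00 to 9.07 and HCR smoke arrays at 5.79 to 7.82. Smoke minus sham was 1.49 in LCR and 0.63 in HCR lungs for Ptges, and 1.28 in LCR and 0.00 in HCR lungs for Alox15. The line difference under smoke minus that under sham was 0.86 ± 0.33 for Ptges (adjusted p = 0.139) and 1.28 ± 0.41 for Alox15 (adjusted p = 0.0836), neither of which passed.

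Of 20 macrophage genes 2 were called, Spp1 and Ctsk, against 6.32% of all genes called. Spp1, the secreted matrix protein osteopontin, had its lowest, median and highest levels at 6.20, 7.16 and 9.92 in LCR smoke and 5.53, 6.48 and 7.68 in HCR smoke lungs, so that the groups overlapped widely. Its difference was 0.86 ± 0.26 (adjusted p = 0.0430) and that of the protease Ctsk was 0.55 ± 0.17 (adjusted p = 0.0405). The call ended with any 1 of 14 arrays left out for Spp1 (up to 0.0798) and of 12 for Ctsk (up to 0.0770). Other macrophage genes that differed without passing were Cd68 (0.33 ± 0.14), Trem2 (0.42 ± 0.19) and Gpnmb (0.26 ± 0.11), with Mmp12 at -0.07 and Csf1r at 0.03. Of 30 lysosomal genes, Ctsk, Ctsb (0.14 ± 0.04) and Gusb (0.20) were higher. Differences of 28 of the 30 lay above 0, with a median of 0.11, and 0 to 8 members were called with 1 array left out (0 without HCR smoke array 0419, and 0 without the 4 heart-rich arrays). Under sham, 4 of the 20 macrophage and 4 of the 30 lysosomal genes were called lower in LCR lungs, and none was called higher. The sham list medians were -0.35 and -0.10, and 2.34% of all genes were called lower under sham. The test of the change between exposures was passed by 3 macrophage and 4 lysosomal genes, against 1.87% of all genes. None of 11 neutrophil genes was called under smoke.

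Of the acute phase proteins, haptoglobin Hp, which binds free hemoglobin, was higher in LCR smoke at 0.61 ± 0.14 (adjusted p = 0.00961), and all 12 LCR smoke arrays were above the HCR smoke mean. Hp differed by 0.66 under sham (adjusted p = 0.0407). Itih4 was higher too (0.28 ± 0.07), and the secreted phospholipase Pla2g2a was lower (-0.57 ± 0.17, adjusted p = 0.0401, up to 0.0766 with 1 array left out). Of 14 measured, 21.4% were called, against 6.32% of all genes.

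The enzymes by which the lung answers smoke hydrocarbons and oxidants mostly did not pass the test between lines. Cyp1a1 had its lowest, median and highest levels at 11.80, 12.11 and 12.21 in LCR smoke and 11.46, 11.82 and 12.26 in HCR smoke lungs. The groups overlapped and the difference of 0.28 ± 0.12 did not pass (adjusted p = 0.140), while sham lungs lay at 4.46 to 6.14 in LCR and 4.47 to 5.02 in HCR. Cyp1b1 (0.48 ± 0.22), Aldh3a1 (-0.46 ± 0.21), Nqo1 (0.07 ± 0.10) and Hmox1 (0.15 ± 0.24) did not pass either. Of 7 aryl hydrocarbon receptor targets, 1 was called (14.3%, against 6.32% of all genes): Ahrr, the receptor's repressor, at 0.46 ± 0.10 (adjusted p = 0.00335). Ahrr lay at 6.19, 6.69 and 7.23 in LCR smoke and 5.80, 6.20 and 6.65 in HCR smoke lungs, overlapping, against 4.39 to 4.77 in LCR sham and 4.37 to 4.57 in HCR sham lungs.

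NRF2 targets were higher for 2 of 20, and iron and metallothionein genes for 3 of 14, against 4.61% of all genes. The NRF2 targets were the biliverdin reductase Blvrb (0.27 ± 0.06, adjusted p = 0.00572) and the pentose phosphate enzyme Tkt (0.23 ± 0.07, adjusted p = 0.0319, not called with any 1 of 8 arrays left out, up to 0.0577). The iron genes were Tfrc, the transferrin receptor (0.37 ± 0.08, adjusted p = 0.00308), the iron transporter Slc11a2 (0.43 ± 0.11) and the hepcidin regulator Hfe (0.27 ± 0.07). All 12 LCR smoke arrays were above the HCR smoke mean for Tfrc, whose sham difference was -0.02. None of the 16 genes followed as signs of smoke exposure, of cytotoxic cells (Prf1 and Gzmb) and of lung identity was called. Among them were Lcn2 (0.77 ± 0.37), Lpo (0.53 ± 0.34), Slc26a4 (0.57 ± 0.22) and Orm1 (0.74 ± 0.32). Differences of 13 of the 16 lay above 0, with a median of 0.31, against 0.0063 for all genes. The lowest HCR smoke array for Lcn2, Lpo, Slc26a4 and Orm1 was 0419, which stood apart, and the tally is not given without it. Under sham 2 of the 16 were called higher in LCR lungs, none was called lower, and the median was -0.13.

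Endothelial genes were called lower in LCR smoke lungs for 6 of 20 members and called higher for none, against 1.70% of all genes called lower. The 6 were Ackr1, a chemokine-binding receptor of venules (-0.46 ± 0.09, adjusted p = 0.00297), the lymphatic hyaluronan receptor Lyve1 (-0.34 ± 0.07), the angiopoietin receptor Tek (-0.23 ± 0.06), Pecam1 (-0.21), Prox1 (-0.20) and Eng (-0.17). Ackr1 had its lowest, median and highest levels at 6.35, 6.66 and 6.94 in LCR smoke and 6.71, 7.23 and 7.58 in HCR smoke lungs, with no LCR smoke array above the HCR smoke mean. The list median was -0.05, with Cldn5 (0.03), Vwf (0.05) and Kdr (-0.03) near 0. Lyve1 was lower under sham too (-0.52, adjusted p = 0.00117). Called members numbered 4 to 7 with 1 array left out and 3 without the 4 heart-rich arrays.

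Interferon response genes were lower for 3 of 25, against 1.70% of all genes, namely Parp9 (-0.37 ± 0.08, adjusted p = 0.00373), Herc6 (-0.35 ± 0.09, adjusted p = 0.0187) and Ifi44 (-0.32 ± 0.10, adjusted p = 0.0488, up to 0.0934 with 1 array left out). Their list median was -0.14, and 21 of 25 differences were below 0. With the interquartile range covariate 1 member was called. Under sham 2 of the 25 were called higher in LCR lungs and none was called lower, with a list median of 0.16, and 1.39% of all genes were called higher. No member passed the test of the change between exposures. Outside the list, Ubd, a ubiquitin-like modifier induced by interferon, differed by -0.98 ± 0.26 (adjusted p = 0.0186, 0.0897 with the interquartile range covariate), and the antiviral helicase Ddx60 by -0.70 ± 0.18 (adjusted p = 0.0167, 0.108 with that covariate). Ubd ran at 5.67, 6.67 and 7.45 in LCR smoke and 6.64, 7.63 and 8.60 in HCR smoke lungs, overlapping. Sham differences were -0.03 for Ubd and 0.01 for Ddx60.

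Ccn1, a matrix-associated protein of the immediate early class, had its lowest, median and highest levels at 5.92, 7.94 and 9.07 in LCR smoke and 8.26, 9.20 and 10.08 in HCR smoke lungs. No LCR smoke array was above the HCR smoke mean, and the difference was -1.50 ± 0.43 (adjusted p = 0.0319). That call ended without HCR smoke array 0413 or LCR smoke array 0425, 0429 or 0431 (adjusted p up to 0.0623). Ccn1 was the only one of 25 immediate early genes called (4.0%, against 6.32% of all genes). Omd, a small leucine-rich proteoglycan, was lower under both exposures, at -0.86 ± 0.12 under smoke (adjusted p = 3.78e-05) and -0.78 under sham. Its LCR smoke arrays lay at 5.43, 5.92 and 6.53 and its HCR smoke arrays at 6.35, 6.87 and 7.58 (lowest, median, highest), overlapping only at the edge.

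Serpinf1, an antiangiogenic serpin, and Sfrp2, a secreted Wnt antagonist, were high in 3 of the 4 heart-rich arrays, at 7.75 to 8.61 for Serpinf1 and 8.0 to 8.26 for Sfrp2. The fourth, 0414, was at 6.5 and 6.06, and array 0419, outside the 4, at 7.52 and 7.56. Serpinf1 differed by -1.13 ± 0.28 (adjusted p = 0.0143) in all arrays and by -0.71 (adjusted p = 0.129) without those 4 HCR smoke arrays. Sfrp2 differed by -1.04 ± 0.31 (adjusted p = 0.0396) in all arrays and by -0.59 (adjusted p = 0.266) without them. All 19 heart muscle genes had differences below 0, none was called, and their median was -1.0 in all arrays and -0.02 without those arrays. Myh1, listed as a skeletal muscle gene, stood at -0.33 ± 0.08 (adjusted p = 0.0121) and at -0.23 without them (adjusted p = 0.125). Its chosen probe set did not follow the skeletal muscle list on HCR sham array 0433. That array had a list mean of 4.75, yet its Myh1 level of 9.59 lay within the other HCR sham arrays' 9.09 to 9.79. The dimmest Myh1 probe set went the other way under smoke (0.45 ± 0.15, limma adjusted p = 0.0747 over all probe sets), while the others were lower.

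Of 19 matrix metalloproteinases and inhibitors, 21.1% were called, against 6.32% of all genes. Mmp19 (0.36 ± 0.06, adjusted p = 2.00e-04) and Timp2 (0.14) were higher, and Mmp23 (-0.26) and Timp4 (-0.25) were lower. Mmp19 lay at 5.38 to 5.86 in LCR smoke and 5.01 to 5.52 in HCR smoke lungs, against 4.97 to 5.34 in LCR sham and 4.97 to 5.41 in HCR sham lungs. Its line difference under smoke exceeded that under sham by 0.36 ± 0.10 (adjusted p = 0.0428). Of 27 collagen and elastic fibre genes, 3.7% were called, against 6.32% of all genes. The called gene, Mfap4, was higher (0.21 ± 0.05, adjusted p = 0.00500).

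Energy metabolism, in which both lines are known to differ in muscle, held few calls in lung. None of 47 respiratory chain genes was called, and their differences ran from -0.06 to 0.11. None of 16 citrate cycle genes was called either. Fatty acid oxidation had 2 of 21 members higher (9.52%, against 4.61% of all genes). They were the thiolase Acaa2 (0.48 ± 0.09, adjusted p = 7.46e-04) and the reductase Decr1 (0.32 ± 0.09, adjusted p = 0.0200). A second, dimmer probe set of Acaa2 gave -0.07 ± 0.06. Lipid storage had 2 of 17 members higher (11.8%), the lipid droplet coat Plin2 (0.30 ± 0.07) and the fatty acid carrier Fabp5 (0.27 ± 0.07).

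Among epithelial lists, alveolar type 1 genes were higher for 2 of 11 (18.2%, against 4.61% of all genes called higher). These were Gprc5a (0.34 ± 0.07, adjusted p = 0.00161) and the tight junction protein Cldn18 (0.18). Alveolar type 2 genes were higher for 1 of 13 (7.69%), the surfactant lipid enzyme Lpcat1 (0.25 ± 0.06). None of 9 club cell and 12 ciliated cell genes was called. Scnn1g, a subunit of the epithelial sodium channel, was lower under smoke (-0.41 ± 0.08, adjusted p = 0.00184) and under sham (-0.49). Single calls elsewhere were Mcm6 of the cell cycle (0.22), Tp53inp1 of the p53 targets (0.23), Bhlhe41 of the clock (0.35), Prdx2 of peroxide removal (0.12), Mgst1 of the glutathione transferases (0.13), Spdef of mucous cells (0.23), Bank1 of B cells (-0.43) and Gabpa of the mitochondrial regulators (-0.23). In all, 16 of 48 lists had no called member, 20 had higher members alone, 8 had lower members alone and 4 had both.

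The remaining large differences are of mixed function. Higher in LCR smoke were Clec3b, the plasminogen-binding protein tetranectin (1.11 ± 0.26), Cemip2, a cell surface hyaluronidase (0.85 ± 0.16), Pkp1, a desmosomal plaque protein (0.73 ± 0.11), Baat, which conjugates bile acids (0.75 ± 0.23, up to 0.0695 with 1 array left out), and Scrn1 (0.74 ± 0.10). Clec3b lay at 8.22, 8.89 and 9.20 in LCR smoke and 6.17, 7.86 and 8.46 in HCR smoke lungs (lowest, median, highest), with array 0415, one of the heart-rich arrays, lowest of all. Without those 4 arrays Clec3b differed by 1.05 (adjusted p = 0.0257). Lower in LCR smoke were the splicing factor Cwc25 (-0.85 ± 0.13), Trim16 (-0.77 ± 0.15), Lypd2 (-0.79 ± 0.20, not called without the heart-rich arrays, adjusted p = 0.0843), the co-chaperone Dnajc12 (-0.73 ± 0.13), the BMP antagonist Sostdc1 (-0.63 ± 0.13), the methyltransferase Inmt (-0.61 ± 0.16, not called without those arrays, adjusted p = 0.0948) and Ooep, known from oocytes (-0.63 ± 0.19, up to 0.0766 with 1 array left out).

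Calls near the threshold moved with single choices. Without the 4 heart-rich HCR smoke arrays, the calls ended for Acly, Baat, Bhlhe41, Ccl5, Ccm2, Ccn1, Cd5, Cers2, Cldn18, Ctsb, Ctsk, Cx3cl1, Cxcl12, Decr1, Dhodh, Eng, Fabp5, Fetub, Gabpa, Gusb, Gzmk, Gzmm, Hfe, Ifi44, Igsf6, Il2rb, Inmt, Itih4, Lpcat1, Lypd2, Mfap4, Mgst1, Mtfp1, Myh1, Nkg7, Pecam1, Plin2, Prelid1, Prox1, RT1-DMa, Rnh1, Serpinf1, Sfrp2, Spdef, Spp1, Timp2, Timp4, Tmem163, Tp53inp1 and Zp2. With the interquartile range as a covariate they ended for Acly, Alox15, Baat, Bank1, Bhlhe41, Ccm2, Ccn1, Cers2, Cldn18, Clec3b, Ctsb, Ctsk, Cx3cl1, Ddx60, Decr1, Dhodh, Eng, Fabp5, Fetub, Gabpa, Gusb, Gzmm, Herc6, Hfe, Ifi44, Igsf6, Il2rb, Inmt, Itih4, Krt79, Lpcat1, Mgst1, Mmp23, Mtfp1, Myh1, Nkg7, Ooep, Paqr4, Pecam1, Plin2, Prdx2, Prelid1, Prox1, RT1-A, RT1-DMa, RT1-M3-1, Rnh1, Sec14l2, Serpinf1, Sfrp2, Spdef, Spp1, Timp2, Timp4, Tkt, Tmem163, Tp53inp1, Ubd and Zp2. With quantile normalization they ended for Acly, Bhlhe41, Ccm2, Cers2, Ctsk, Cx3cl1, Fetub, Gusb, Gzmk, Gzmm, Il2rb, Msmo1, Prdx2, Spdef and Spp1. Leaving out 1 of at least 5 of the 24 smoke arrays ended the calls of Acly, Baat, Bank1, Bhlhe41, Ccm2, Cd5, Cers2, Ctsk, Cx3cl1, Eng, Fetub, Gabpa, Gusb, Gzmk, Gzmm, Ifi44, Il2rb, Ooep, Pla2g2a, Prdx2, Prox1, RT1-M3-1, Sfrp2, Spdef, Spp1, Tkt, Tp53inp1 and Zp2 (adjusted p up to 0.0948). Without HCR smoke array 0419 the calls ended for Acly, Baat, Bank1, Bhlhe41, Ccl5, Ccm2, Cd5, Cers2, Ctsb, Ctsk, Cx3cl1, Cxcl12, Eng, Fetub, Gabpa, Gusb, Gzmk, Gzmm, Ifi44, Il2rb, Mgst1, Mtfp1, Nkg7, Ooep, Pla2g2a, Prdx2, Prelid1, Prox1, Sec14l2, Sfrp2, Spdef, Spp1, Tkt, Tp53inp1 and Zp2. Single arrays left out also ended the calls of Ctsb (HCR smoke 0419, LCR smoke 0426), Mgst1 (HCR smoke 0415, HCR smoke 0419, LCR smoke 0427), Mtfp1 (HCR smoke 0419, LCR smoke 0426), Prelid1 (HCR smoke 0417, HCR smoke 0419, LCR smoke 0426) and Sec14l2 (HCR smoke 0419, LCR smoke 0424, LCR smoke 0425). Of 89 called genes named by rule, 38 kept their call in each setting they were tested in and with each smoke array left out, and none changed direction there. With low genes left out, 74 of the 89 were tested. Members of lists beyond the 3 called ones of smallest p, and uncalled members outside the 16 genes of exposure, cytotoxic cells and identity, were picked with their values in view.

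The sham lungs, which share no array with the smoke lungs, gave a second reading of the line difference, with 531 genes called (3.73% of 14217). The differences under smoke and under sham correlated across the 14217 genes at a Pearson's r of 0.151 and a Spearman's rho of 0.058, and genes of one array are not independent of each other. Called under both exposures in the same direction were 95 genes, 10.6% of the smoke calls and 17.9% of the sham calls, 57 higher and 38 lower in LCR. Of the 42 genes that differed by at least 1.5-fold under smoke, 21 were among them. By the smaller of both differences the leading ones were Mis18a, Clec3b, Anks4b, Crym, Cxcl14, Cwc25, Ccl5, Omd, Trim16 and Baat. Clec3b, for one, was higher in LCR sham by 1.80 (adjusted p = 0.00148) and Cwc25 lower by a difference of -1.13 (adjusted p = 8.12e-05).

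For 266 genes (1.87% of 14217) the line difference under smoke differed from that under sham. Among them were 106 of the 898 smoke calls, 89 higher and 17 lower in LCR smoke. Part of that overlap is built in, because the test contains the smoke difference and uses the same smoke arrays. The count of 266 became 170 without LCR smoke array 0429, 175 without HCR smoke array 0419, 404 without HCR smoke array 0412, 417 without LCR smoke array 0420 and 107 without the 4 heart-rich arrays. Among all genes, 10 were called under both exposures in opposite directions, each higher in LCR smoke and lower in LCR sham. All 10 genes passed the test of that change. This was nearly fixed by the choice, because the test is of the difference between both line differences. They were Ccm2, Cers2, Fasn, Fetub, Khk, Mtfp1, Paqr4, Prelid1, Rnh1 and Sec14l2, of which Fasn, Fetub, Paqr4 and Sec14l2 are among the largest changes and the rest were chosen after their values were seen. With the interquartile range covariate the smoke calls ended for all of these but Fasn and Khk. Without HCR smoke array 0419 they ended for Ccm2, Cers2, Fetub, Mtfp1, Prelid1 and Sec14l2. Khk, the fructose kinase, stood at 0.20 ± 0.04 under smoke and -0.19 under sham, and Cers2, a ceramide synthase, at 0.14 ± 0.04 under smoke (up to 0.0887 with 1 array left out) and -0.20 under sham.

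Mro had the largest change between exposures among genes called under smoke, 1.12 ± 0.21 (limma adjusted p = 0.00812). It lay at 5.76, 6.33 and 6.78 in LCR smoke and 5.10, 5.46 and 6.12 in HCR smoke lungs, and at 4.65 to 5.23 in LCR sham and 4.97 to 6.03 in HCR sham lungs. All 12 LCR smoke arrays were above the HCR smoke mean, and smoke minus sham was 1.36 in LCR and 0.24 in HCR lungs. Krt79, a keratin, changed by 0.93 ± 0.25, Fetub, a liver-type cystatin family protein, by 0.79 ± 0.15, Sec14l2, a tocopherol-binding protein, by 0.75 ± 0.13, the zinc transporter Tmem163 by 0.71 ± 0.16, Igsf6 by 0.60 ± 0.15 and Paqr4 by 0.60 ± 0.10. Fetub lay at 10.81, 10.95 and 11.12 in LCR smoke and 10.02, 10.79 and 10.89 in HCR smoke lungs, against 9.21 to 9.74 in LCR sham and 9.34 to 10.30 in HCR sham lungs, so that LCR was the higher line under smoke and the lower line under sham. The smoke call of Fetub ended with the interquartile range covariate, and also without HCR smoke array 0419. Cxcl12 alone among the 10 changed downward (-0.73 ± 0.20, adjusted p = 0.0449).

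**Figure D5:**
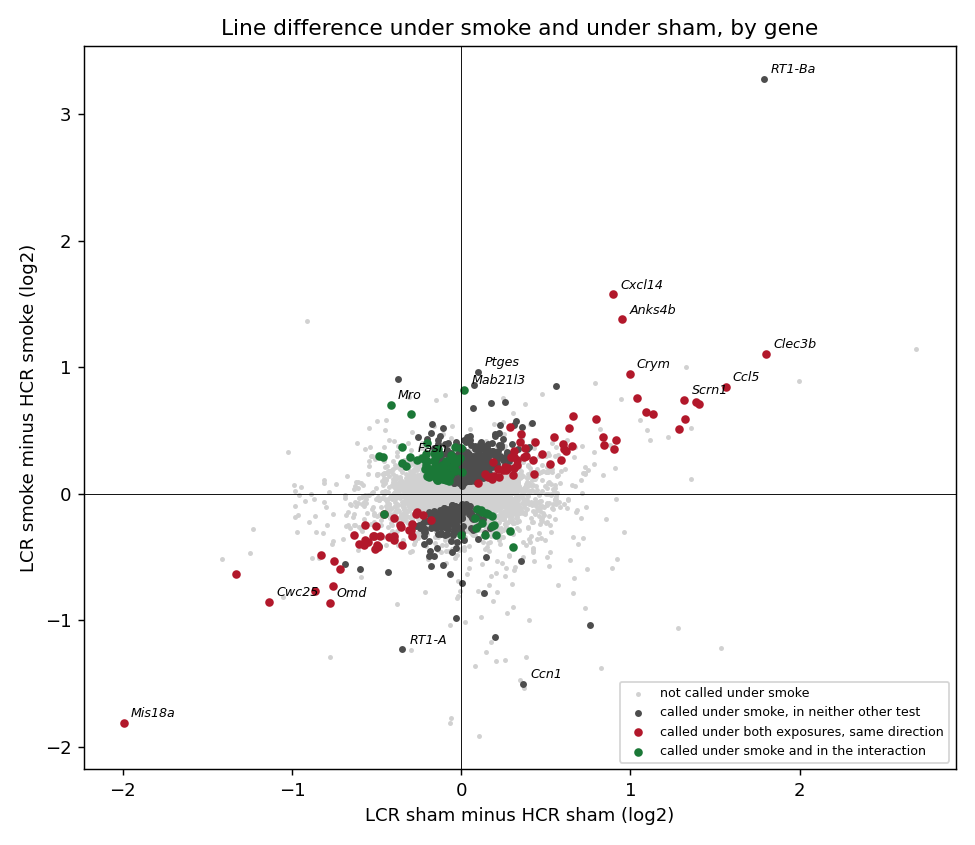
Line difference of each of 14217 genes (log2) under sham (horizontal) and under smoke (vertical); colours give the tests passed. Red points, called in the same direction under both exposures, run from Mis18a at lower left to Clec3b at upper right, while Mab21l3, Mro and Fasn lie above 0 under smoke, with sham differences of 0.02, -0.42 and -0.30.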

How the data were processed

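Lung RNA of 38 samples was measured on 1 array each, and groups were taken from the labels. These number the samples without saying that each is a separate animal, so 1 rat per array is assumed, and p-values measure the spread between these samples. The deposited table holds linear intensity values for 31099 probe sets, from 2.09 to 11558; the software and normalization the authors used are not given in the sources used here. Array numbers of the 4 groups do not interleave, so array order and group cannot be told apart.

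Values were analysed as log2(intensity + 16). After 57 controls were left out, 20826 probe sets with 1 gene symbol in the platform annotation gave 14217 genes, each by its probe set of highest mean, and probe sets with several symbols (436) or none (9780) were not used. A model with a mean for each of the 4 groups was fitted to the 38 arrays in limma 3.58.1 in R 4.3.3 (lmFit and eBayes, moderated and two-sided, 34 residual degrees of freedom), with Benjamini-Hochberg adjustment over all genes and a threshold of 0.05. Adjusted p-values of genes come from this limma fit. Precision is limited by how many arrays each group has.

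Array measures were compared with two-sided permutation tests (100000 resamples, SciPy 1.17.1). The comparison, its members and the 48 gene lists were chosen with earlier results of these data known. Named genes were the 15 largest called differences in each direction, up to 3 called members of each list by p, 16 genes of exposure, cytotoxic cells and lung identity, up to 10 genes called under smoke and in the change between exposures, and up to 10 called in the same direction under both. Gene order and promoters are from RefSeq (GRCr8), and 14204 genes had a place. The alternatives were other normalizations, filters, pseudocounts, probe set rules, model settings, covariates, and arrays left out.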

Additional observations from a re-analysis of the deposited data

Results flagged for a closer look

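The line difference under smoke differed from that under sham, by limma's test of that change, for 13 of the genes named by rule. The change, smoke minus sham in log2, was 1.12 ± 0.21 for Mro, 0.93 ± 0.25 for Krt79, 0.80 ± 0.14 for Mab21l3, 0.79 ± 0.15 for Fetub, 0.75 ± 0.13 for Sec14l2, 0.71 ± 0.16 for Tmem163, 0.60 ± 0.15 for Igsf6 and 0.60 ± 0.10 for Paqr4. It was 0.59 ± 0.10 for Fasn, 0.36 ± 0.10 for Mmp19, 0.32 ± 0.07 for Nsdhl, 0.27 ± 0.06 for Mgst1 and -0.73 ± 0.20 for Cxcl12. The adjusted p of these 13 ran from 0.00221 for Fasn to 0.0452 for Krt79. Genes picked with their values in view passed that test too, among them Tmed9, Fdps, Eomes, Ccm2, Cers2, Khk, Mtfp1, Prelid1 and Rnh1.

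In the sham groups of 7, a single array stood far from the rest for 5 of 60 gene and group pairs examined (30 genes), where chance flags about 1 in 20. LCR sham array 0442 was low for Anks4b at 6.0 and high for Ubd at 8.31, LCR sham array 0444 was low for Cxcl14 at 8.38, LCR sham array 0443 was low for RT1-Ba at 6.72, and HCR sham array 0434 was low for Mis18a at 6.69, all as log2(intensity + 16). Among array measures, LCR sham array 0442 had a heart muscle list mean of 3.53, HCR sham array 0433 had a skeletal muscle list mean of 4.75 and a fat cell list mean of 2.29, and HCR sham array 0432 had 3′ minus 5′ control differences of 2.06 for Actb and 1.2 for Gapdh. The sham values set beside the smoke differences rest on these arrays too. Smoke groups of 12 were not examined in this way.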

How the results depend on the processing

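The 898 genes called under smoke became 365 with the interquartile range covariate, 449 without HCR smoke arrays 0410, 0414, 0415 and 0417, and 2860 with array weights, and ran from 599 to 1246 with each smoke array left out. The higher calls fell to 434 without HCR smoke array 0419, 434 without LCR smoke array 0426 and 431 without LCR smoke array 0425, against 656. The 42 genes at least 1.5-fold apart became 77 over all probe sets, 64 and 18 with pseudocounts of 1 and 64, and 25 with the interquartile range covariate, and ran from 33 to 46 with each array left out. The 531 genes called under sham became 815 with median-centred arrays (168 higher, 647 lower), 1240 over all probe sets, 946 with array weights, 827 with the interquartile range covariate and 233 with 2 groups in the fit. The 266 genes of the change between exposures became 549 with median-centred arrays, 531 over all probe sets, 1537 with array weights, 562 and 629 with the Gapdh and Actb covariates, 107 without the 4 heart-rich arrays and 107 with the heart muscle covariate, and ran from 170 to 417 with each smoke array left out; the last 3 alternatives were chosen after seeing the data. More features are tested over all probe sets, and fewer arrays enter where arrays are left out; otherwise the cause was not tested. The uncalled Mmp12 difference of -0.07 turned to 0.04, 0.13, 0.01 and 0.02 without HCR smoke arrays 0414, 0418, 0412 and 0408, and to 0.02 without LCR smoke array 0420, within a range of -0.31 to 0.13 over arrays left out. No paired analysis was possible because the groups share no replicate numbers. A fit of 2 groups cannot give the change between exposures. Dim probe sets limit fold sizes, as the pseudocounts show.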
